A study of Homo sapiens with 6 samples.

Results

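Ribosome biogenesis was followed here through 40 genes, chosen by name, whose products make and assemble the ribosome. They fall into 5 roles: RNA polymerase I transcription (5 genes), small nucleolar ribonucleoproteins or snoRNPs (8), small subunit assembly (8), large subunit assembly (14) and multifunctional nucleolar proteins (5). A value was taken for each gene from its brightest microarray probe set that carries 1 gene symbol. By that rule 35 of the 40 genes were measured, among 19775 genes with such a probe set, and all 35 were bright enough to be among the 11777 genes tested. The other 5 were not measured: the probe sets of NOP56, DKC1 and BOP1 are annotated together with small RNA genes, those of PPAN together with a read-through gene, and GNL3 matched no probe set in the annotation used.

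The samples come from 2 established human leukaemia lines, Jurkat, from an acute T cell leukaemia, and K562, from a chronic myeloid leukaemia with erythroid features. In each line ZFX, a zinc finger transcription factor encoded on the X chromosome, was silenced with a short hairpin RNA delivered by a lentivirus, and fluorescent cells were sorted. Each line has 3 arrays: a control, a silenced array with hairpin 381 and a silenced array with hairpin 1012. Each array carries RNA pooled in equal amounts from 3 replicates, so the spread between those replicates is not seen. Both lines were grown in the same medium. The sample labels call the control cells normal, while the growth protocol and design name a vector with a control hairpin, and this was not settled. Both hairpins bear the same number in the sample labels and are called here by their identifiers.

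Ribosome production starts in the nucleolus, where RNA polymerase I copies the ribosomal DNA into a long precursor. Box C/D and box H/ACA snoRNPs guide its methylation and pseudouridylation, and large assembly complexes fold, cut and dress it with ribosomal proteins until the small and large subunits are exported. Many genes of this process are textbook targets of the transcription factor MYC, which binds with its partner MAX to the E-box CACGTG, and demand for ribosomes is high in growing leukaemia cells.

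The deposited values are MAS5 signals, a linear brightness per probe set, and all arrays had the same 2% trimmed mean of about 500. Differences are given on the log2(signal + 17) scale, which understates those of dim genes. A gene is said to differ where limma's adjusted p (Benjamini-Hochberg over all genes tested) was under 0.05. ZFX, checked first, had signals of 498 in control, 337 with hairpin 381 and 119 with hairpin 1012 in Jurkat, and of 719, 236 and 289 in K562. It was therefore below control on all 4 silenced arrays, although the test was not passed in Jurkat (log2 -1.23 ± 0.52 SE, adjusted p = 0.998) or in K562 (-1.40 ± 0.52, adjusted p = 0.946). Markers of the cell types were as the lines are labelled: all 13 T cell genes tested were lower in K562 (median log2 -6.16), and all 7 erythroid genes tested were higher (median 4.71). The arrays differed in spiked poly-A controls, whose median log2 in Jurkat was 8.52 in control, 8.74 with 381 and 9.01 with 1012, and in K562 7.71, 8.21 and 8.50. The 3′ to 5′ signal ratio of ACTB, a measure of RNA length, was 9.27, 9.99 and 8.43 in Jurkat and 11.1, 8.61 and 7.54 in K562 in the same order.

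The start of the genes is shown first, because the E-box is the sequence that many of them share and its count varied by role. RefSeq promoter windows of GRCh38.p14, from 250 bases before to 50 after a start of transcription, were at hand for 34 of the 40 genes. The E-box CACGTG reads the same on both strands, and it was found in the window of 16 of the 34 genes (47.1%). It was found in 12.9% of the 9621 tested genes that have a window and in 8.77% of all 27305 genes with one. The 6 genes below that have a match are shown from 70 bases before to 30 after the start, with the E-box in capitals, and TAF1D is shown as a gene without one. UTP4 (chr16:69132579-69132678, plus strand) and PNO1 (chr2:68157818-68157917, plus strand) stand for small subunit assembly, MRTO4 (chr1:19251735-19251834, plus strand) and PES1 (chr22:30591881-30591980, minus strand) for large subunit assembly, FBL (chr19:39846350-39846449, minus strand) for the snoRNPs and DDX21 (chr10:68956577-68956676, plus strand) for the nucleolar proteins. TAF1D (chr11:93741466-93741565, minus strand) stands for RNA polymerase I transcription. All are printed 5′ to 3′ on the strand of the gene and cover promoter sequence and the first transcribed bases.
UTP4: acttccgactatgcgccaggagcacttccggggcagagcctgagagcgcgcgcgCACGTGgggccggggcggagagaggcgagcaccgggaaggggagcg
PNO1: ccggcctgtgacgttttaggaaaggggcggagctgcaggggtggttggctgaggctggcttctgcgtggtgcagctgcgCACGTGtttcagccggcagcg
MRTO4: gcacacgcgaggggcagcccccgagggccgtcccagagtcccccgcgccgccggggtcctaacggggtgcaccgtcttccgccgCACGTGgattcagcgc
PES1: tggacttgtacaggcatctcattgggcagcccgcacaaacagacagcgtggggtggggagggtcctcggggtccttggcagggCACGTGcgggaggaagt
FBL: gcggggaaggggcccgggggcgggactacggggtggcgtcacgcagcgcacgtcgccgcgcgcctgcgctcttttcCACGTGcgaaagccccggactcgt
DDX21: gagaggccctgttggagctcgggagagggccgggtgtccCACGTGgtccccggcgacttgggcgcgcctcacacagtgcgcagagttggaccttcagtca
TAF1D: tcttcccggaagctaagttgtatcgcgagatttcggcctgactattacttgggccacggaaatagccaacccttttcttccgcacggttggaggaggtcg

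By role, the E-box was found in 0 of 5 RNA polymerase I genes, 3 of 6 snoRNP genes, 5 of 7 small subunit genes, 5 of 11 large subunit genes and 3 of 5 nucleolar protein genes with a window. Of the 16 matches 5 lay before the start, at first bases between -64 in LYAR and -5 in RRP9. The other 11 lay within the first transcribed bases, from position 4 in WDR43 to position 36 in NOP2. A match is only a run of letters and was not tested for binding in these cells. Among 85 further ribosome biogenesis genes with a window, 26 (30.6%) held an E-box.

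**Figure D1:**
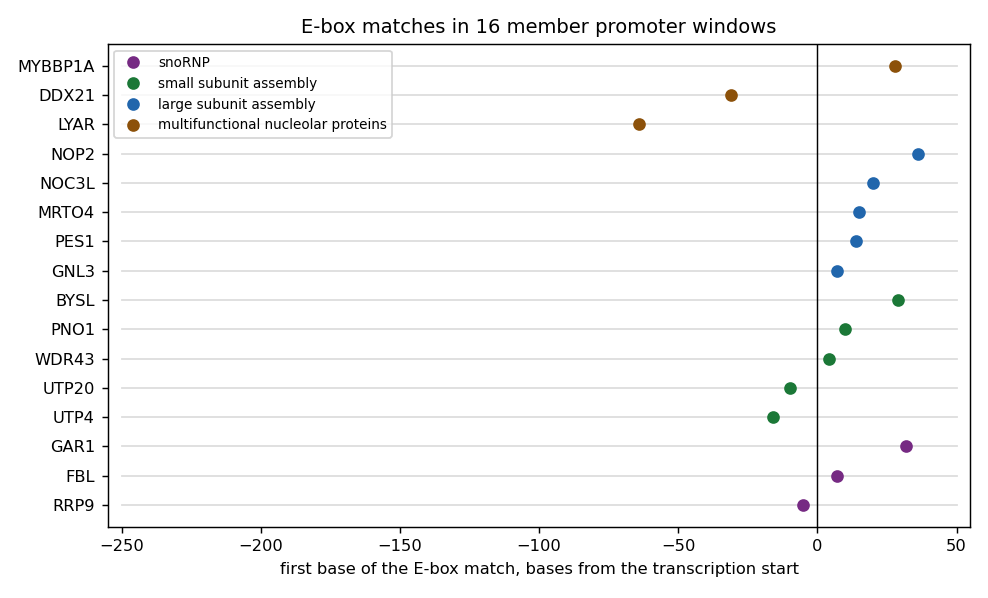
Position of each E-box match (first base, in bases from the start of transcription at 0) in the promoter windows of the 16 genes that hold one; each grey line is a window from 250 bases before to 50 after the start and the colour gives the role. The matches lie between -64 and 36, and no gene of RNA polymerase I transcription is among them.

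The core of the motif bound by ZFX, AGGCCT, reads the same on both strands too and overlaps no E-box. It was found in 4 of the 34 genes (11.8%): BYSL, GRWD1, POLR1B and PPAN. That share was 14.2% among tested genes and 13.0% among all genes with a window. POLR1B, a core subunit of RNA polymerase I, holds 2 copies, and the 250 bases before its start (chr2:112541786-112542035, plus strand) are shown with both in capitals.
POLR1B: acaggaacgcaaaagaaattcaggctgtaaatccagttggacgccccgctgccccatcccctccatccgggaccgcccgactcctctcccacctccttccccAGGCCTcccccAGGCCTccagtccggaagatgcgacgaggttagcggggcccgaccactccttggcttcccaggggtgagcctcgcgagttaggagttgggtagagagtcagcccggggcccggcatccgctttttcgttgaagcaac
POLR1B had signals of 1844, 2317 and 2278 in Jurkat control, 381 and 1012, and of 3156, 3416 and 2755 in K562. On this brightest probe set both silenced arrays were above control in Jurkat, while in K562 one lay above and one below. Its further probe sets all lay below the K562 control with both hairpins (-0.28 and -0.28, -0.03 and -0.39, -0.50 and -0.56). In Jurkat these gave 0.10 and 0.01, -0.18 and -0.28, and -0.11 and -0.52.

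The lines differed in many of the 35 genes, and most often K562 was the higher. Of the 35 genes 20 (57.1%) differed between K562 and Jurkat over 3 arrays a line, close to the 56.8% of all genes tested that differed. The direction was uneven: 15 genes (42.9%) were higher in K562, against 26.1% of all genes, and 5 (14.3%) were lower, against 30.6% of all genes. The median log2 difference was 0.32 for the 35 genes and -0.04 for all genes. For 19 genes (54.3%) every K562 array lay above every Jurkat array, against 31% of all genes, and for 7 (20%) the reverse held, against 35.2%. RNA was taken from many cells together, and every array was scaled to the same mean. RNA content per cell is therefore not seen in these values. In bulk samples fewer cells of a type and less RNA per cell cannot be told apart.

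Of the 5 genes of RNA polymerase I transcription 3 were lower in K562 and 1 was higher, with a median log2 difference of -0.60. Further genes of this role outside the 35, named after their values were seen, lay on both sides: POLR1C (0.69), POLR1E (1.21) and POLR1G (1.19) were higher in K562, and POLR1D (-0.64) and TTF1 (-1.24) were lower. UBTF, the factor that binds and opens ribosomal DNA, had signals of 1475, 1565 and 1167 in Jurkat control, 381 and 1012, and of 713, 796 and 650 in K562. All 3 K562 arrays lay below all Jurkat arrays, by a log2 difference of -0.94 ± 0.19 SE (limma adjusted p = 0.00371). Its further probe sets above the filter on dim signals (dimmer ones are not given for any gene) had 0.33, 0.32 and -0.17, and with the mean of its probe sets the difference was -0.07. TAF1D, a subunit of the selectivity factor that places the polymerase on its promoter, had 1213, 1410 and 1865 in Jurkat and 927, 928 and 832 in K562. The lines did not overlap, and the difference was -0.38 between the controls and -1.15 between the 1012 arrays (-0.71 ± 0.18 over all, adjusted p = 0.0112). RRN3, which bridges the polymerase to that factor, had 2690, 3798 and 3336 in Jurkat and 2057, 2398 and 1966 in K562, again without overlap (-0.60 ± 0.16, adjusted p = 0.0114). POLR1B was the gene of this role that was higher in K562 (0.53 ± 0.15, adjusted p = 0.0184), but its further probe sets lay at 0.05, 0.03 and -0.44, and the mean of its probe sets gave 0.04. POLR1A, the largest polymerase subunit, did not pass over the 3 arrays of a line (-0.02), and K562 lay above Jurkat in control (0.57) and below it with 381 (-0.42) and 1012 (-0.22). Its further probe sets had 0.59 and 0.38. Without the Jurkat 1012 array TAF1D no longer passed (-0.58, adjusted p = 0.063), without the Jurkat 381 array RRN3 did not (-0.54, adjusted p = 0.055), and POLR1B failed without any 1 of the 3 Jurkat arrays or the K562 381 array (0.43 to 0.54, adjusted p between 0.052 and 0.073).

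**Figure D2:**
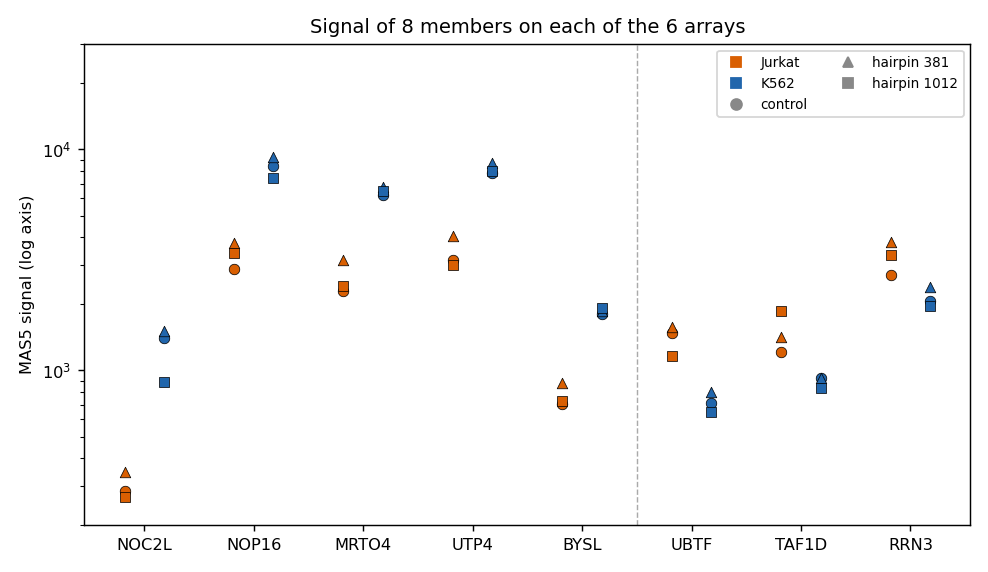
MAS5 signal (log axis) of 8 genes on each of the 6 arrays, Jurkat in orange and K562 in blue, with circles for control, triangles for hairpin 381 and squares for hairpin 1012. Left of the dashed line are 5 assembly genes whose K562 arrays all lie above the Jurkat arrays, and right of it UBTF, TAF1D and RRN3, whose K562 arrays all lie below.

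All genes of small subunit assembly that differed were higher in K562: 4 of 8 genes passed in this direction and 0 in the other, with a median log2 difference of 0.63. UTP4, a protein of the early complex that joins transcription to processing of the precursor, had signals of 3147, 4042 and 2992 in Jurkat control, 381 and 1012, and of 7823, 8642 and 7957 in K562. Every K562 array was above every Jurkat array, by 1.27 ± 0.15 (2.41-fold, adjusted p = 0.000168), and its second probe set gave 1.27 as well. BYSL, which acts late in small subunit maturation, had 707, 873 and 727 in Jurkat and 1806, 1861 and 1926 in K562. That is a clear gap of 1.26 ± 0.17 (2.40-fold, adjusted p = 0.000351), and it was between 1.08 and 1.38 in control and with each hairpin. PNO1, the partner that brings the nuclease NOB1 to the end of the small subunit RNA, had 2634, 3694 and 2881 in Jurkat and 5443, 5679 and 5222 in K562. The lines were apart on this probe set (0.84 ± 0.15, adjusted p = 0.00161), but not on the further 2, at -0.00069 and 0.12, and the mean of its probe sets did not pass (0.32, adjusted p = 0.103). HEATR1, a large scaffold protein of the early complex, had 4547, 4730 and 4161 in Jurkat and 8393, 7801 and 6391 in K562 (0.74 ± 0.13, adjusted p = 0.00182). Its lines did not overlap either, and 3 of its 4 further probe sets agreed in sign, the dimmest being the one that did not (-0.51). The genes that did not pass were RRP12, which helps export the small subunit (0.51, adjusted p = 0.0595), NOB1 (0.24), the scaffold protein UTP20 (0.14) and WDR43, a partner of UTP4 in the early complex (-0.28).

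Large subunit assembly held 6 genes that were higher in K562 and 1 that was lower among 11 measured, with a median of 0.50. NOC2L, part of a complex that travels with large subunit precursors through the nucleus, had signals of 286, 349 and 268 in Jurkat control, 381 and 1012, and of 1395, 1507 and 891 in K562. The lowest K562 array was far above the highest Jurkat array, and the difference of 1.98 ± 0.24 was 3.96-fold (adjusted p = 0.000212). NOP16, a nucleolar assembly protein, had 2878, 3758 and 3384 in Jurkat and 8428, 9198 and 7441 in K562 (1.32 ± 0.14, 2.50-fold, adjusted p = 7.83e-05). MRTO4, which holds the place of the stalk protein during assembly, had 2298, 3158 and 2408 in Jurkat and 6234, 6790 and 6467 in K562 (1.32 ± 0.15, 2.49-fold, adjusted p = 0.000138). For these 3 genes the lines did not overlap, and the second probe set gave 1.23 for NOC2L, 1.37 for NOP16 and 2.23 for MRTO4. RRS1, which with RPF2 brings in the smallest ribosomal RNA, had 1387, 2178 and 1962 in Jurkat and 4014, 4335 and 3383 in K562. Its difference was 1.10 ± 0.16 (adjusted p = 0.000594), larger between the controls (1.52) than between the 1012 arrays (0.78).

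The complex of PES1, BOP1 and WDR12, which is needed to process the large subunit RNA, was measured through PES1 and WDR12. WDR12 had signals of 4849, 6050 and 5955 in Jurkat control, 381 and 1012, and of 8548, 8695 and 8816 in K562, without overlap (0.63 ± 0.11, adjusted p = 0.00125). Its 2 further probe sets, both dim, gave -0.27 and -0.23, and the mean of its probe sets gave 0.04. PES1 did not pass (0.32), and its K562 1012 array, at 428, was as low as the lowest Jurkat array. NIP7, an assembly factor, passed narrowly (0.50 ± 0.18, adjusted p = 0.0483). It did not pass with cyclic loess normalization, a smaller pseudocount or no intensity trend (adjusted p = 0.057, 0.054 and 0.10). The same held with no filter, the 75th percentile filter or the mean of its probe sets (adjusted p = 0.071, 0.053 and 0.15). Its call was lost without either control array, the Jurkat 1012 array or the K562 381 array (0.31 to 0.48, adjusted p between 0.079 and 0.181). NOP2, a methyltransferase of the large subunit RNA, was the gene of this role that was lower in K562, with 918, 1172 and 985 in Jurkat and 711, 769 and 639 in K562. The lines did not overlap (-0.52 ± 0.18, adjusted p = 0.038), though the call was lost without either Jurkat silenced array, the K562 control or the K562 1012 array (-0.61 to -0.44, adjusted p between 0.058 and 0.157). NOP2 also failed with quantile or cyclic loess normalization (-0.42 and -0.45, adjusted p = 0.083 and 0.067) and with no filter (adjusted p = 0.054). RRP1B, NOC3L, the partner of NOC2L, and GRWD1, a chaperone of histones and of a ribosomal protein, did not pass (-0.10, 0.13 and 0.41).

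Among the snoRNP genes 2 were higher in K562 and 1 was lower, of 6 measured. GAR1, a core protein of the H/ACA particles that guide pseudouridylation, had signals of 3732, 5292 and 4929 in Jurkat control, 381 and 1012, and of 9222, 9406 and 7415 in K562. The lines did not overlap (0.91 ± 0.13, adjusted p = 0.00059), and the gap was 1.30 between the controls and 0.59 between the 1012 arrays. FBL, the methyltransferase of the C/D particles, differed little although every K562 array was above every Jurkat array: 14340, 13570 and 12819 in Jurkat against 16783, 18136 and 16298 in K562 (0.33 ± 0.09, adjusted p = 0.0131). NOLC1, a chaperone of snoRNPs, was lower in K562, with 15269, 16418 and 15038 in Jurkat and 13254, 13501 and 10890 in K562 (-0.32 ± 0.11, adjusted p = 0.036). Its further probe sets gave the opposite sign, at 0.87 and 0.43. FBL failed the test without the Jurkat 1012 array (0.30, adjusted p = 0.053) and with quantile or cyclic loess normalization (both 0.20, adjusted p = 0.057 and 0.060), and NOLC1 without the Jurkat control, Jurkat 381 or K562 1012 array (-0.33 to -0.21, adjusted p between 0.051 and 0.12). With no intensity trend FBL and NOLC1 lost their calls too (limma adjusted p = 0.12 and 0.17), as did NOLC1 with no filter (adjusted p = 0.081). NOP58, the core partner of FBL, and NHP2, the core partner of GAR1, did not pass (-0.11 and 0.10), and neither did RRP9, whose signal was dim (0.31).

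Of the nucleolar proteins DDX21, an RNA helicase that works on both polymerase and precursor, had the smallest adjusted p of all 35 genes. It had signals of 13780, 15522 and 13437 in Jurkat control, 381 and 1012, and of 27303, 26866 and 24790 in K562. The lines were well apart (0.89 ± 0.09, 1.85-fold, adjusted p = 6.69e-05), and the second probe set gave 0.89 too. NPM1, the histone and ribosome chaperone nucleophosmin, had 26729, 30692 and 31320 in Jurkat and 34818, 37527 and 32893 in K562 (0.25 ± 0.07, adjusted p = 0.0193). That small gap was lost without the Jurkat control, Jurkat 381 or K562 381 array (0.18 to 0.24, adjusted p between 0.056 and 0.101). It was also lost with quantile normalization (0.15, adjusted p = 0.067) and cyclic loess normalization (0.06, adjusted p = 0.49), while its 2 further probe sets gave 0.60 and 0.71. NPM1 did not pass with no filter or with no intensity trend either (limma adjusted p = 0.084 and 0.23). MYBBP1A, a regulator of nucleolar transcription, did not pass (0.20), nor did the zinc finger protein LYAR (0.32) or NCL, which encodes nucleolin (-0.18).

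**Figure D3:**
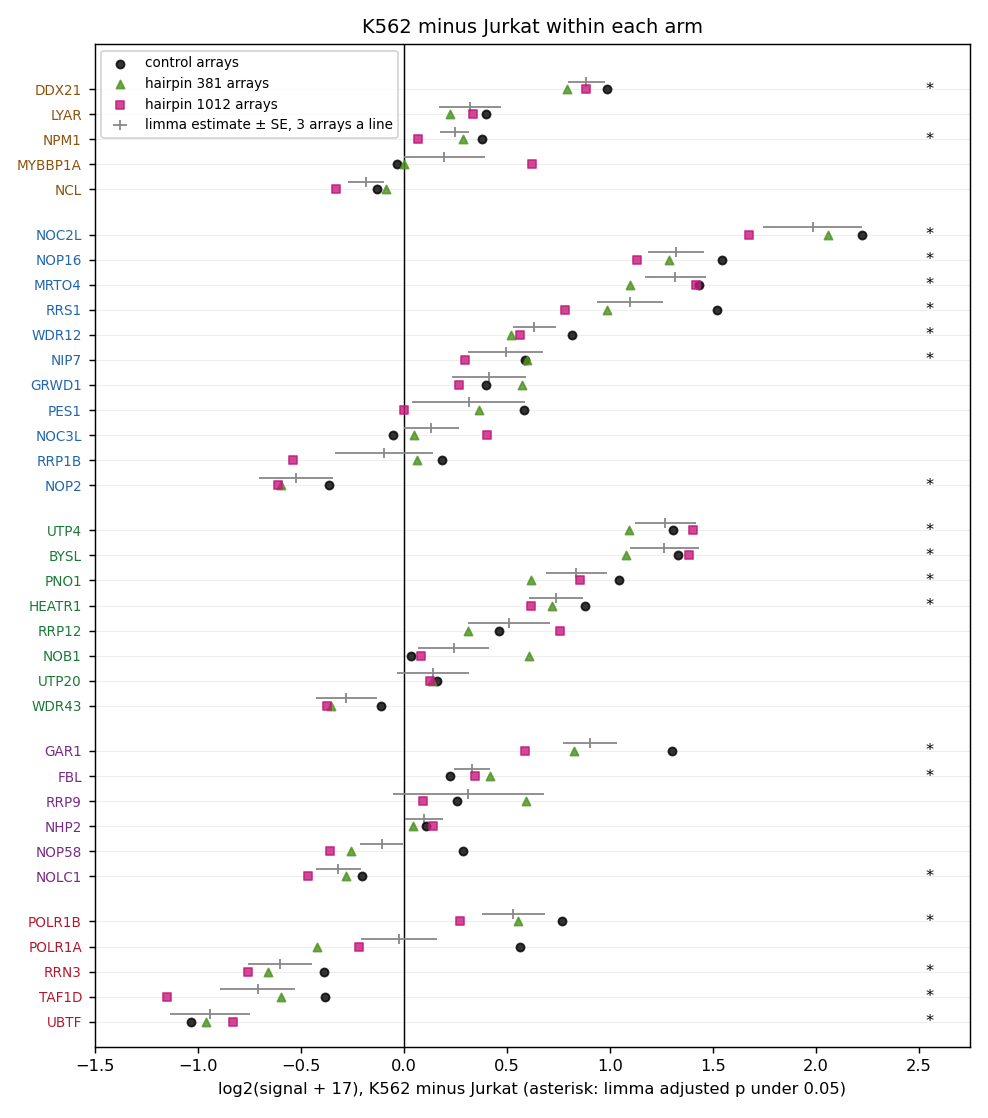
Difference in log2(signal + 17), K562 minus Jurkat, for each of the 35 genes between the control arrays (circles), the hairpin 381 arrays (triangles) and the hairpin 1012 arrays (squares), with the limma estimate ± SE in grey. Gene names are coloured by role (red RNA polymerase I, purple snoRNP, green small subunit, blue large subunit, brown nucleolar) and an asterisk marks an adjusted p under 0.05; the green and blue genes with asterisks lie right of 0, but for NOP2.

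Of these 20 genes 9 kept their direction and passed the test under every alternative tried: BYSL, DDX21, GAR1, HEATR1, MRTO4, NOC2L, NOP16, RRS1 and UTP4. In 13 of the 20 a further probe set was above the filter on dim signals, and in 7 of the 13 all such probe sets had the sign of the brightest one, while in 6 at least 1 had the opposite sign. The lines were also compared by E-box: of 15 measured genes with one, 7 were higher in K562 and 1 was lower, with a median of 0.32, and of 15 with a window and none, 7 were higher and 3 lower, with a median of 0.25. The difference between these sets of genes was not tested. MYC itself had signals of 17027, 13321 and 16334 in Jurkat control, 381 and 1012, and of 11749, 12016 and 6448 in K562, and was lower in K562 (-0.67 ± 0.21, adjusted p = 0.027). It did not pass without the Jurkat control (-0.61, adjusted p = 0.0653) or without the Jurkat 1012 array (-0.58, adjusted p = 0.0538), nor with no filter (adjusted p = 0.0593) or no intensity trend (adjusted p = 0.0900). Without the K562 1012 array the difference was -0.38 (adjusted p = 0.0249). MAX was lower in K562 as well, with 8278, 7773 and 5924 in Jurkat and 3886, 3449 and 2576 in K562 (-1.15 ± 0.17, adjusted p = 0.000583).

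The series was designed to ask what silencing of ZFX does in each line. For the 35 genes no change passed the test. In Jurkat 0 of 35 genes passed limma's test, as did 0 of all 11777 genes (0%), and in K562 likewise 0 of 35 and 0 of all (0%). When the lines were averaged or their responses were compared, again 0 members and 0 genes (0%) passed. At an unadjusted p under 0.05 there were 1 member and 412 genes in Jurkat, 2 members and 577 genes in K562, 0 and 720 over both lines, and 1 and 292 for the contrast of the responses. Each line has 1 control array, which is assumed to vary like the silenced arrays, so a deviation of that array moves every value of its line.

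In Jurkat most of the 35 genes lay slightly above control with hairpin 381, and about as many above as below it with hairpin 1012. With hairpin 381, 29 of 35 genes were above control with a median log2 difference of 0.23, against 50.2% of all genes. With hairpin 1012, 18 of 35 were above control and the median was 0.04, against 47.2% of all genes. Above control with both hairpins were 15 genes (42.9%, against 31.2% of all genes), and below it with both were 3, FBL, GRWD1 and MYBBP1A (8.57%, against 33.8%). RRS1 had the smallest p: its signals, given above, were 0.64 and 0.49 above control on the log2 scale (0.57 ± 0.24, unadjusted p = 0.0456, adjusted p = 0.998). GAR1 was 0.50 and 0.40 above control (0.45 ± 0.20), WDR12 0.32 and 0.30 (0.31 ± 0.16), and each had an adjusted p of 0.998. For these 3 genes both silenced Jurkat arrays were well above the control array, and the K562 arrays did not repeat it, with WDR12 at 0.02 and 0.04, RRS1 at 0.11 and -0.25, and GAR1 at 0.03 and -0.31. For WDR12 the rise in Jurkat depended on the probe set. The brighter of its further probe sets, both dim, gave -0.48 and -0.72 there, and the dimmer 0.33 and 0.16. NPM1 (0.21 ± 0.11), RRN3 (0.40 ± 0.23) and NOP16 (0.31 ± 0.20) also lay above control with both hairpins in Jurkat and did not pass. Of the further probe sets of NPM1 the brighter gave 0.14 and 0.00078 in Jurkat, and the dimmer -0.14 and -0.34. FBL had the smallest p among genes below control (-0.12 ± 0.13), ahead of MYBBP1A (-0.21 ± 0.29). The second probe set of MYBBP1A, which is dim, lay above control with both hairpins in Jurkat (0.13 and 0.36).

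In K562 most genes lay above control with hairpin 381 and most lay below it with hairpin 1012. The median gap between the hairpins, 1012 minus 381, was much the same in both lines (-0.18 in Jurkat and -0.19 in K562). With hairpin 381, 28 of 35 genes lay above control with a median of 0.11, against 50.7% of all genes. With hairpin 1012, 27 of 35 lay below control with a median of -0.13, while 46.6% of all genes were above. All 5 RNA polymerase I genes and all 6 snoRNP genes were below control on the 1012 array, where 4 of 5 and 5 of 6 were above it on the 381 array. Above control with both hairpins were 7 genes (20%, against 31.1% of all genes), BYSL, MRTO4, NOB1, NOC3L, RRP12, UTP4 and WDR12. Below control with both were 6 (17.1%, against 33.8%), DDX21, HEATR1, NOP58, POLR1A, RRP1B and WDR43. For HEATR1 this depended on the probe set. Its further ones, from brighter to dimmer, gave -0.05 and -0.28, 0.03 and 0.03, 0.30 and 0.29, and -0.75 and -0.03 in K562. The second probe set of DDX21 gave 0.02 and -0.09. The poly-A spikes stood 0.50 above the K562 control on the 381 array and 0.79 above it on the 1012 array, and 0.23 and 0.49 in Jurkat, and the part of this in the members' values was not tested.

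POLR1A was the member with the smallest p in K562. Its signals were 508 in control, 277 with 381 and 296 with 1012 in K562, and 338, 376 and 347 in Jurkat. Both silenced K562 arrays lay below every Jurkat array and the K562 control above them all, and the silenced arrays were 0.84 and 0.75 below control on the log2 scale (-0.79 ± 0.28, unadjusted p = 0.021, adjusted p = 0.915). The further 2 probe sets of POLR1A were below the K562 control as well, at -0.26 and -0.64 for one and -0.16 and -0.15 for the other. In Jurkat, where the brightest probe set was 0.15 and 0.04 above control, these 2 gave 0.11 and -0.17, and -0.17 and 0.13, so neither was above control with both hairpins. NOP58 had signals of 11515, 9231 and 8078 in K562 control, 381 and 1012, and of 9414, 11008 and 10349 in Jurkat. It lay below control in K562 with both hairpins and did not pass the test (-0.41 ± 0.16, unadjusted p = 0.0293, adjusted p = 0.962), and lay above control with both in Jurkat. RRP1B, a chromatin-bound factor of large subunit processing, had 10890, 6192 and 8028 in K562 and 9582, 5918 and 11656 in Jurkat. Its lowest arrays were those of hairpin 381 in both lines, and in neither line did it pass (-0.63 ± 0.36 in K562, -0.21 ± 0.36 in Jurkat). Of the genes above control in K562 the smallest p belonged to NOC3L, with 4980 in control, 5780 with 381 and 5847 with 1012 (0.22 ± 0.20), and NOB1, with 1628, 2084 and 1855 (0.27 ± 0.26). Both silenced arrays were above control for these 2 genes, and neither passed.

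**Figure D4:**
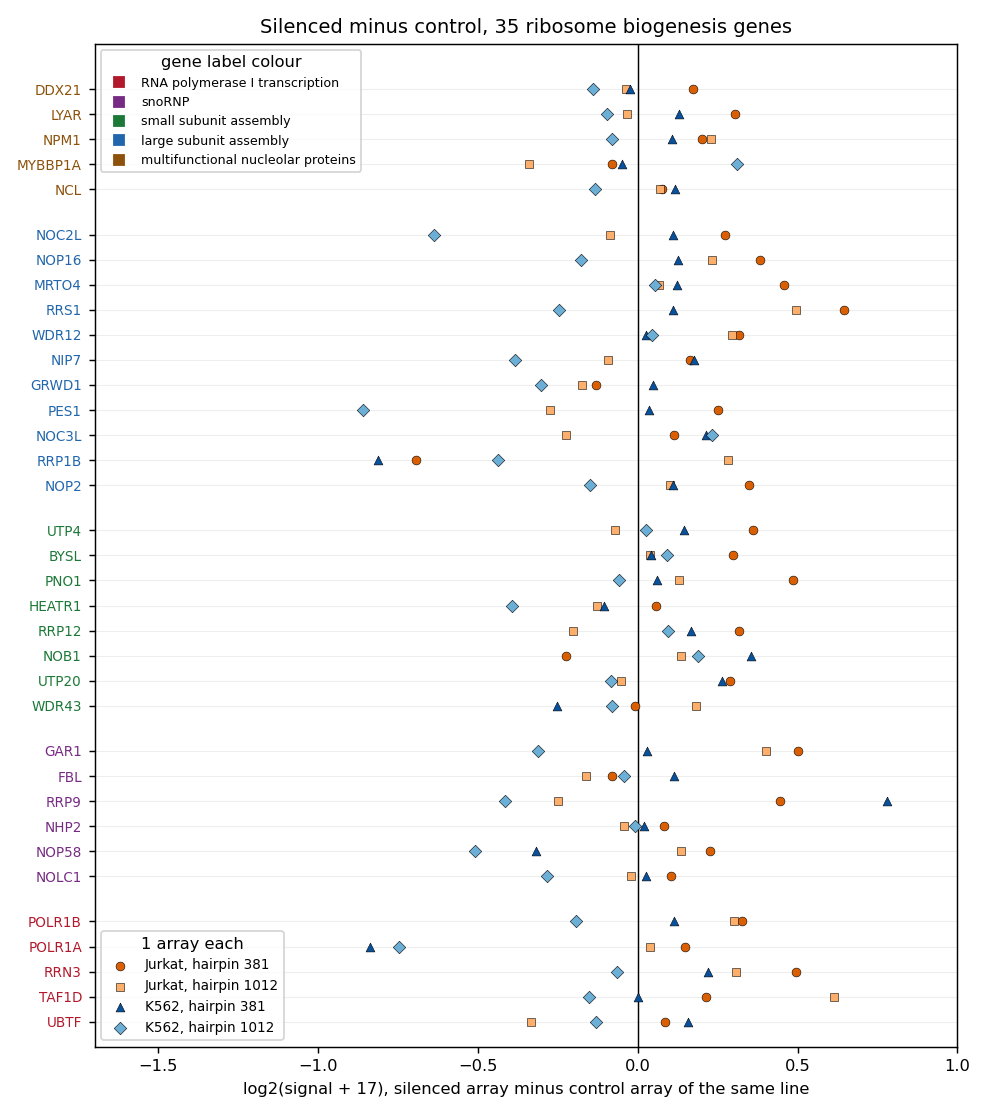
Silenced minus control array of the same line in log2(signal + 17) for each of the 35 genes; each symbol is 1 array, orange for Jurkat and blue for K562, dark for hairpin 381 and light for hairpin 1012, and gene names are coloured by role. Most values lie within 0.5 of 0, POLR1A in K562 (-0.84 and -0.75) being among the exceptions, and the light blue K562 1012 symbols are mostly left of 0.

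Across all 4 silenced arrays 3 of 35 genes were above their own control (8.57%, against 12.7% of all genes): BYSL, MRTO4 and WDR12. None was below control on all 4 (0 of 35, against 15.2% of all genes). BYSL was above control by 0.30, 0.04, 0.04 and 0.09 in Jurkat with 381, Jurkat with 1012, K562 with 381 and K562 with 1012. MRTO4 stood at 0.46, 0.07, 0.12 and 0.05 in the same order. These values are small for both genes apart from Jurkat with 381. BYSL has 1 probe set, while the second of MRTO4 was above control in Jurkat (0.44 and 0.49) and below it in K562 (-0.41 and -0.35). Of the further 2 probe sets of WDR12, both dim, the brighter lay below control on all 4 silenced arrays (-0.48, -0.72, -0.43 and -0.55). The dimmer gave 0.33, 0.16, 0.18 and -0.0045 in the same order. BYSL also carries the AGGCCT letters in its window, as do POLR1B and GRWD1. POLR1B lay above control in 3 of the 4 silenced arrays on its brightest probe set only. Its further probe sets, from brighter to dimmer, gave 0.10, 0.01, -0.28 and -0.28, then -0.18, -0.28, -0.03 and -0.39, then -0.11, -0.52, -0.50 and -0.56 in the same order. GRWD1 was below control with both hairpins in Jurkat.

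Most of the 35 genes were lower with hairpin 1012 than with hairpin 381, without a gene passing the test. Hairpin 1012 was compared with 381 with the line as a block, and 107 of all 11777 genes passed (0.909%), of which 67 were higher (0.569%) and 40 lower (0.34%) with 1012. Of the 35 members 0 passed, and 9 had an unadjusted p under 0.05, as had 1697 of all genes. Of the members, 30 of 35 were on the lower side with 1012, with a median log2 difference of -0.22, while the median of all genes was -0.03. In Jurkat alone 30 of 35 were lower with 1012 (median -0.18, against 52.3% of all genes), and in K562 alone 28 of 35 were (median -0.19, against 54.0%). Lower with 1012 in both lines were 25 of 35 genes (71.4%, against 33.5% of all genes), and higher in both were 2, RRP1B and WDR43 (5.71%, against 27.2%). These counts use the brightest probe set of each gene. The second probe set of UBTF was higher with 1012, at 288 and 339 in Jurkat and 331 and 397 in K562. So was that of MRTO4, at 476 and 495 in Jurkat and 1883 and 1955 in K562. Those of NOP16, NOC2L, HEATR1 and LYAR were lower with 1012 in both lines. All 6 snoRNP genes, 10 of 11 large subunit genes, 6 of 8 small subunit genes, 4 of 5 RNA polymerase I genes and 4 of 5 nucleolar proteins were on the lower side.

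PES1 had signals of 624 with 381 and 428 with 1012 in Jurkat, and of 810 and 428 in K562. The 1012 array was the lower in both lines (-0.71 ± 0.21, unadjusted p = 0.0071, adjusted p = 0.169), and the 1012 arrays also lay below both controls, at 522 and 790. RRP9, the protein that marks the snoRNP of small subunit processing, was dim, at 146 and 83.5 in Jurkat and 228 and 90.2 in K562 (-0.94 ± 0.29, adjusted p = 0.194). Here the 381 arrays lay above both controls, at 103 and 126, and the 1012 arrays below them. NIP7 had 3048 and 2549 in Jurkat and 4628 and 3138 in K562 (-0.41 ± 0.13, adjusted p = 0.211), with the controls, at 2722 and 4098, in between. Its second probe set showed a larger gap, at 1478 and 611 in Jurkat and 2249 and 902 in K562. There the controls, at 1410 and 2279, were close to the 381 arrays, and only the 1012 arrays were low. NOC2L (-0.55 ± 0.20, adjusted p = 0.257), UTP20 (-0.34 ± 0.13, adjusted p = 0.274) and NOLC1 (-0.22 ± 0.09, adjusted p = 0.304) came next, each lower with 1012 in both lines. For NOLC1 this held on the brightest probe set only, and the further 2 were higher with 1012 in both lines. The brighter of them had 1499 with 381 and 1819 with 1012 in Jurkat, and 2655 and 2801 in K562. The dimmer had 423 and 432 in Jurkat, and 601 and 632 in K562.

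RRP1B stood at the other end. With 381 it was at 5918 in Jurkat and 6192 in K562, with 1012 at 11656 and 8028, and in control at 9582 and 10890. The 381 arrays were the lowest in both lines, and the difference was 0.67 ± 0.16 (unadjusted p = 0.00182, adjusted p = 0.0892). It passed without the K562 381 array (0.80, adjusted p = 0.0473) and without the K562 1012 array (1.01, adjusted p = 0.00759), and did not pass without either Jurkat array (0.55 and 0.34, adjusted p = 0.196 and 0.202). The second probe set of RRP1B, which is dim, did not show the difference, with -0.03 and -0.02 against control in Jurkat and -0.52 and -0.56 in K562 for 381 and 1012. Between the hairpins the poly-A spikes were also higher with 1012 in both lines and the ACTB ratio was lower, and their part in the members' values was not tested.

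**Figure D5:**
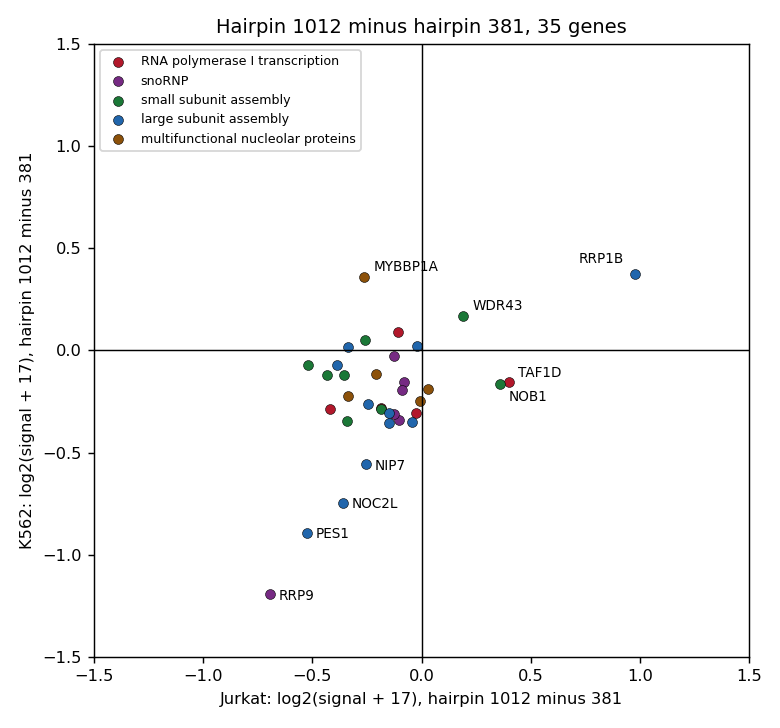
Difference between the hairpins, 1012 minus 381, in log2(signal + 17) for each of the 35 genes, Jurkat on the horizontal axis and K562 on the vertical axis, coloured by role. Left of and below 0 lie the 25 genes lower with 1012 in both lines, and right of and above 0 lie RRP1B and WDR43.

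A wider list of 98 further ribosome biogenesis genes, 94 of them tested, held more genes that were higher than lower in K562. Between the lines 44 of 94 (46.8%) were higher in K562 and 5 (5.32%) lower, against 26.1% and 30.6% of all genes, with a median of 0.36. The higher genes of smallest p were NMD3 (1.35 ± 0.11, adjusted p = 1.86e-05), the export adaptor of the large subunit, RPF2 (1.36 ± 0.11, adjusted p = 2.06e-05), the partner of RRS1, and GNL2, TEX10 and POLR1E (1.03, 1.15 and 1.21). Those lower in K562 were SHQ1, an assembly chaperone of the H/ACA particles (-1.85 ± 0.16, adjusted p = 3.39e-05), TTF1, the terminator of RNA polymerase I (-1.24 ± 0.16, adjusted p = 0.00031), KRR1 (-0.90), POLR1D (-0.64) and FCF1 (-0.54). FCF1, with an adjusted p of 0.0417, lost its call without any 1 array other than the K562 381 array (-0.54 to -0.47, adjusted p between 0.0772 and 0.119), and its sign turned with the mean of its probe sets (0.16, adjusted p = 0.398). TEX10 did not pass with the mean of its probe sets (0.24, adjusted p = 0.274). No gene of the list passed for silencing in either line. On the silenced arrays 69, 49, 56 and 26 of 94 were above control in Jurkat with 381, Jurkat with 1012, K562 with 381 and K562 with 1012. With hairpin 1012 against 381, 0 of 94 passed and 73 were lower (median -0.15). Lower in both lines were 58 of 94 (61.7%, against 33.5% of all genes). DDX52 (-0.72 ± 0.15, adjusted p = 0.069), UTP23 (-0.55 ± 0.13, adjusted p = 0.11), WDR46 (-0.58), UTP3 (-0.39) and LAS1L (-0.46) had the smallest p on that side, and SNU13 (0.45 ± 0.15, adjusted p = 0.213) on the other.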

How the data were processed

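Members and gene lists were chosen with earlier results of these data known. The 6 Affymetrix arrays are one-colour, and for each one equal amounts of RNA from 3 replicates were mixed, per the labels. The deposited values are linear intensities, 1 per probe set, and MAS5 made them, per the submitters' processing notes (its version is not given in the sources used). Their 2% trimmed mean of about 500 on every array shows a scaling to a common target. Precision is limited by the number of arrays, and no detection calls were used.

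Of 54675 probe sets 41097 had 1 gene symbol in the platform annotation, 1801 several and 11777 none. Log2(signal + 17) was computed, a gene took its single-symbol probe set of highest mean signal, and genes with a mean above the median over all probe sets (a signal of 54.4) were tested, 11777 in all. In limma 3.58.1 (R 4.3.3) the fit had 4 groups, control and silenced in each line, over all 6 arrays, with an intensity trend (2 residual degrees of freedom, prior median 5.82). The lines were compared as means of 3 arrays, silenced against control in each line, as an average and as a difference between lines. The hairpins were compared over the arms control, 381 and 1012 with the line as a block (2 residual, 7.21 prior degrees of freedom). P-values are two-sided with Benjamini-Hochberg adjustment over all genes, at a threshold of 0.05. In the fit of 4 groups they measure the spread between arrays that carry different hairpins. In the fit of the hairpins they measure how far the lines disagree over the arms. The fits were tested on simulated data.

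All members could be named. Signals on every array are given for the members past the threshold or, where none or more than 12 pass, for some of the 6 of smallest p in each direction, and the others are given by log2 value. Of the wider list up to 5 genes in each direction are named. Alternatives covered the pseudocount, the filter, the choice of probe set, quantile and cyclic loess normalization, the intensity trend, leaving out arrays and the hairpin as a block. Motifs were searched on both strands of RefSeq promoter windows (GRCh38.p14), and for 6 members no window was used here.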

Additional observations from a re-analysis of the deposited data

Results flagged for a closer look

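For 2 of the 35 genes both silenced Jurkat arrays lay on one side of their control and both silenced K562 arrays on the other. NOP58 stood 0.23 and 0.14 above control in Jurkat with hairpins 381 and 1012, and 0.32 and 0.51 below it in K562, and the K562 effect minus the Jurkat effect was -0.60 ± 0.22 SE (limma, unadjusted p = 0.0275, adjusted p = 1.00). POLR1A stood 0.15 and 0.04 above control in Jurkat and 0.84 and 0.75 below it in K562, and the difference of the effects was -0.89 ± 0.39 (limma, unadjusted p = 0.0532, adjusted p = 1.00). On the further 2 probe sets of POLR1A the silenced Jurkat arrays lay on both sides of control (0.11 and -0.17, and -0.17 and 0.13). Neither difference passed the test, and each value rests on 1 control array per line.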

How the results depend on the processing

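The 0 calls for silencing of members held in each line, in the average and in the difference between lines under every alternative, and the number of all genes called was 0 but for 2 in the average without the K562 381 array. Between the lines, 3 members were lower in K562 with no filter and 3 with the mean of probe sets, and 4258 genes differed at the 75th percentile filter. NOLC1 turned to 0.33 with the mean of probe sets, and on the second brightest probe set NOLC1 gave 0.87, PNO1 -0.00069, UBTF 0.33 and WDR12 -0.27. Between the hairpins, 192 genes passed at the 75th percentile filter, 9 with the mean of probe sets, 0 with no intensity trend and 41 with silenced arrays only. The member median there was -0.21 at that filter, -0.13 with the mean of probe sets and -0.20 with quantile or cyclic loess normalization. Leaving out 1 array gave 15 to 19 members that differed between lines, 12 to 16 higher and 3 to 6 lower, 5816 to 6522 genes and a median of 0.25 to 0.43. For the hairpins it gave 69 to 242 genes (242 without the Jurkat 1012 array and 69 without the K562 1012 array), 0 to 1 members and a median of -0.25 to -0.13. The silencing medians ran from 0.039 to 0.23 in Jurkat, -0.13 to 0.11 in K562, -0.0015 to 0.11 in the average and -0.27 to -0.070 in the difference. Control arrays could be left out only for the lines. Arrays of the same hairpin deviated together across the lines (r = 0.215 over 11777 genes, 2 pairs that share only the hairpin). With the hairpin as a replicate block, 24 members differed between lines, 18 higher and 6 lower, and 0 changed with silencing. The number of arrays limits all values, and the causes of these shifts were not tested.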

Other observations

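Of 9 measured genes of the MYC network, which switches growth genes on through MYC with MAX and off through the MXD proteins, 3 were lower (33.3%, against 30.6% of all genes) and 1 was higher (11.1%, against 26.1%) in K562 than in Jurkat, and 0 passed for silencing in either line. Beside MYC and MAX, MYCN was lower, with signals of 1905, 1236 and 1097 in Jurkat control, 381 and 1012 and of 5.31, 7.65 and 40.5 in K562 (log2 -5.46 ± 0.33 SE, limma adjusted p = 3.66e-06). Its K562 signals all lay below the filter signal of 54.4, so the size of the difference depends on the pseudocount. It was -6.32 with the smaller pseudocount and -4.09 with the larger. MXD1, an antagonist of MYC that also pairs with MAX, was higher (0.82 ± 0.24, adjusted p = 0.0189), but not without the Jurkat 381 array (0.65, adjusted p = 0.0725). MYC lay below control by 0.21 ± 0.32 in Jurkat and by 0.42 ± 0.32 in K562 after silencing, and did not pass in either. In K562 the 1012 array was 0.86 below control, and the 381 array was 0.03 above it.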
